A study of Mus musculus with 3 samples.

Results

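CXC chemokines are small secreted proteins, named for the spacing of a pair of cysteines, that attract leukocytes through receptors coupled to G proteins. The set described here holds 8 ligands, Cxcl1, Cxcl2, Cxcl5, Cxcl9, Cxcl10, Cxcl12, Cxcl16 and Pf4, and 2 receptors, Cxcr2 and Cxcr4. They were chosen by name: a row of the array belonged to the set if its platform gene symbol, brought to the current mouse symbol, was 1 of these 10. All 10 were measured on every array by at least 1 row, among 7211 named genes and 8449 features (named genes and unnamed rows) that could be tested.

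Whole kidneys of BALB/c mice with anti-GBM glomerulonephritis, taken 11 days after injection of an antibody against the glomerular basement membrane, were compared with kidneys of normal BALB/c mice. Each of 3 arrays held RNA of 1 nephritic mouse, labelled with Cy5, beside RNA pooled from 5 normal mice, labelled with Cy3; no other treatment or allele is named for either group. The pool is 1 control sample, so the test is of the ratio against 0. The variation among control mice is not measured, and with no dye swap a dye bias is part of every ratio and cannot be told apart from the disease. The antibody's source, the age and sex of the mice and any injection of the controls are not stated in the labels. Every nephritic mouse has its own number in the labels.

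In inflamed tissue, Cxcl1, Cxcl2 and Cxcl5 are made under the control of NF-kB and draw neutrophils through Cxcr2. Cxcl9 and Cxcl10 are induced by interferons, Cxcl9 mainly by interferon gamma, and draw activated T cells through Cxcr3. Cxcl12 is made by stromal and endothelial cells of many healthy organs and acts through Cxcr4, Cxcl16 is a membrane-bound ligand of Cxcr6 that proteases release, and Pf4 (platelet factor 4, Cxcl4) is stored in the granules of platelets and megakaryocytes and is also made by some macrophages.

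In the RefSeq gene order of mouse assembly GRCm38.p6, 6 of the 10 genes lie on chromosome 5. Cxcl1 and Cxcl2 are next to each other with 0 protein-coding genes between them, Ppbp alone separates Cxcl5 from Pf4, and Art3 alone separates Cxcl9 from Cxcl10. The promoter table held 8 of the 10 genes, and did not hold Cxcl5 and Cxcl16. The 250 bases before the start of transcription are shown for Cxcl1 (chr5:90890995-90891244 on the + strand), Cxcl2 (chr5:90903649-90903898 on the + strand) and Pf4 (chr5:90772185-90772434 on the + strand), which gave the highest ratios, and for Cxcl10 (chr5:92348890-92349139 on the - strand) and Cxcl9 (chr5:92328080-92328329 on the - strand), close neighbours of which the first passed the test and the second did not. Capitals mark matches to a kB-type motif (GGG, 3 bases of any kind and TTCC) or to the motif of an interferon-stimulated response element (GAAA, 2 bases of any kind and GAAA), on either strand.
Cxcl1: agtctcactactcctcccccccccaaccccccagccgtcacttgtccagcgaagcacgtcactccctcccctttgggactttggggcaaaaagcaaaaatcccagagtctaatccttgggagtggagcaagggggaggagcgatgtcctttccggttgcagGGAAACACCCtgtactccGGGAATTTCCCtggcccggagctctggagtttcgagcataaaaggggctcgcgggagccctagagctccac
Cxcl2: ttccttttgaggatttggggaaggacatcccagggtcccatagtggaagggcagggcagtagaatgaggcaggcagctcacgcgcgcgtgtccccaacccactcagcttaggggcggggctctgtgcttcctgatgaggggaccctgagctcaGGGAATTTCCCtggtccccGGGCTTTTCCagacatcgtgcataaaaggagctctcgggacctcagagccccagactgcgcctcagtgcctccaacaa
Pf4: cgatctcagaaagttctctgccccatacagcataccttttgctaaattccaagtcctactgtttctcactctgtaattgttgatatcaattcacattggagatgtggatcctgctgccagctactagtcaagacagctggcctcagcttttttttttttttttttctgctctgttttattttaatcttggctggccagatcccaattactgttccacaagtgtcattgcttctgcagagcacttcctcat
Cxcl10: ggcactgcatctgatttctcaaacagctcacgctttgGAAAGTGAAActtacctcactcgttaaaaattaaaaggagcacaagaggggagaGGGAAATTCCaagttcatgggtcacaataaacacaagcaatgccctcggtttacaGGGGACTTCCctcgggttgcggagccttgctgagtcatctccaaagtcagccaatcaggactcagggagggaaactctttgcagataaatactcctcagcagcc
Cxcl9: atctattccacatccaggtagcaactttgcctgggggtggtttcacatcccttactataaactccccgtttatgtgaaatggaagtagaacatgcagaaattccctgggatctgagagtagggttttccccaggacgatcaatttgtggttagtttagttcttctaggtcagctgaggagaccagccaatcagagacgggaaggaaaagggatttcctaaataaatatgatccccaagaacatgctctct

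The kB-type letters were found in 3 of the 8 windows, those of Cxcl1, Cxcl2 and Cxcl10, against 4.65% of all 32851 windows of this length in the table. Cxcl1 and Cxcl2 had 3 matches each, of which 2 in each gene, on opposite strands, overlap and begin 1 base apart. The longest run that their windows share is GGGAATTTCCCTGG, 14 bases that begin 71 bases before the start of Cxcl1 and 97 bases before that of Cxcl2. Cxcl10 had 2 kB-type matches, 159 and 104 bases before the start. Of the 8 windows, its window alone held the interferon-type letters, as GAAAGTGAAA, 213 bases before the start. The interferon-type letters occur in 2.98% of all windows. A shorter interferon gamma motif (TTC, 3 bases of any kind and GAA), present in 7.02% of windows, matched none of the 8 windows, and those of Cxcl9, Cxcl12, Cxcr2, Cxcr4 and Pf4 matched none of the 3 motifs. A match is a description of these letters, not a site shown to be used in these kidneys. The motifs were searched with fixed letters and spacing, so a window without a match may still hold sites with other letters.

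At day 11, 6 of the 8 ligands were higher in nephritic kidney than in the control pool, 1 was lower (Cxcl12) and 1 did not pass the test (Cxcl9). Of the receptors, Cxcr2 was lower and Cxcr4 did not pass. Over all tested features 20.8% were called higher and 22.3% lower (43.1% either way; limma, Benjamini-Hochberg adjusted p under 0.05), which is the background for these counts. The calls numbered 1755 and 1883, and without mouse 3 they numbered 1102 and 1121. Below, a number in brackets that follows a mean log ratio with no other label is limma's adjusted p of that gene. The members' median log ratio was 0.494, beside -0.00806 over all tested features. Ratios are in the deposited log unit, centred on each array's median, and an exact 0 in the table was treated as a missing ratio. A positive value was read as Cy5 over Cy3, more RNA in nephritic kidney; the dye labels make this likely, and nothing states it for the table. With the sign turned, every call, order and percentile below would run the other way. Nor is the base of the logarithm stated, so that a value of 1 means 2-fold (base 2), 2.72-fold (natural) or 10-fold (base 10). In whole-kidney RNA, a change in the number of cells that make a gene and a change in the RNA made per cell cannot be told apart.

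**Figure D1:**
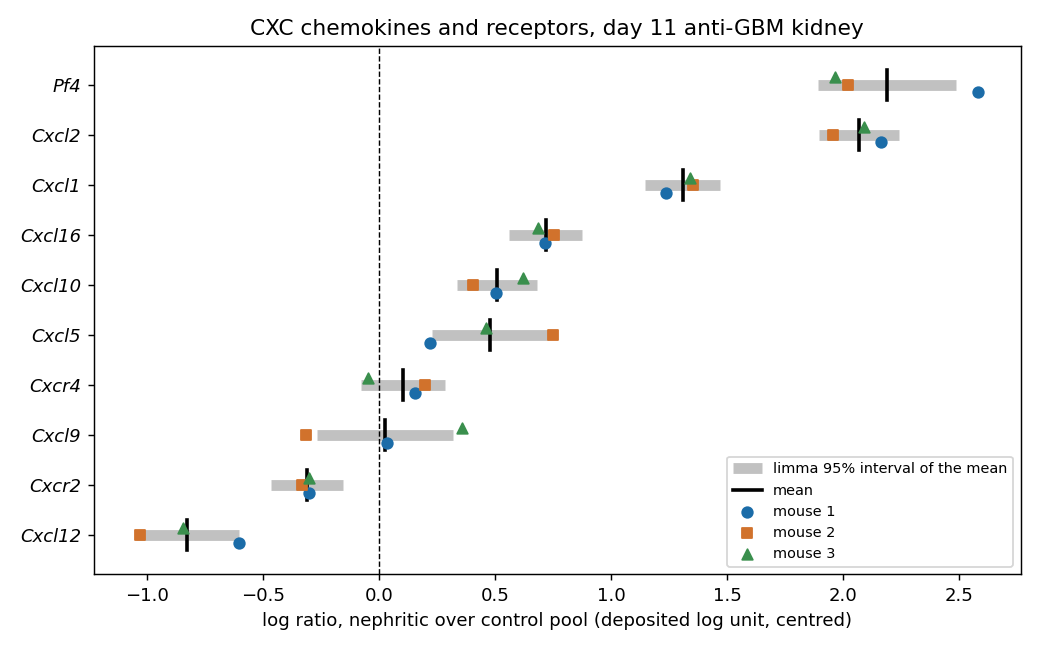
Log ratio of each member (horizontal axis, nephritic over control pool, deposited log unit, centred) in each of the 3 nephritic mice (points), with the mean (black bar) and limma's 95% interval of the mean (grey band). Pf4 (1.96 to 2.58) and Cxcl2 (1.96 to 2.16) stand highest in every mouse, Cxcl12 lies below 0 in every mouse, and the points of Cxcl9 and Cxcr4 fall on both sides of 0.

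The neutrophil ligands Cxcl1 and Cxcl2 were higher in every mouse. Cxcl2 read 2.16 in mouse 1, 1.96 in mouse 2 and 2.09 in mouse 3, a mean of 2.07 ± 0.105 (SD, n = 3; 95% interval 1.90 to 2.24; limma adjusted p = 3e-05). Depending on the base, that mean is a 4.2-fold, 7.92-fold or 117-fold increase. Cxcl1 read 1.24, 1.35 and 1.34 in mice 1 to 3, a mean of 1.31 ± 0.0649 (interval 1.15 to 1.47; limma adjusted p = 5.04e-05). The ranges of the 2 genes over the mice did not overlap. Cxcl2 was at percentile 99.9 and Cxcl1 at percentile 98.9 of all tested features.

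Cxcl5, the third ligand of Cxcr2 in the set, also passed, with the widest spread over the mice among the 8 members that passed after Pf4. Its ratio was 0.222 in mouse 1, 0.752 in mouse 2 and 0.464 in mouse 3. The mean of 0.479 ± 0.265 (interval 0.229 to 0.729; limma adjusted p = 0.0106) lay below every value of Cxcl1 and Cxcl2. Mouse 1, the lowest for Cxcl5, was the highest for Cxcl2.

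Each of these 3 ligands rested on 1 array row. A second row of Cxcl1 and of Cxcl5 had no ratio on any array. A second row of Cxcl2 had a ratio in mouse 2 alone, -0.921, opposite in sign to the 1.96 that the other row gave in the same mouse. With exact 0 kept as a ratio, so that cells without a ratio enter the averages as 0, the means were 0.663 for Cxcl1, 0.892 for Cxcl2 and 0.248 for Cxcl5, and Cxcl2 (limma adjusted p = 0.103) and Cxcl5 (0.178) lost the threshold.

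In the direction taken, Pf4 had the highest mean of the set. It read 2.58 in mouse 1, 2.02 in mouse 2 and 1.96 in mouse 3, a mean of 2.19 ± 0.343 (interval 1.89 to 2.49; limma adjusted p = 6.16e-05), and mouse 1 stood above the others. Its range overlapped that of Cxcl2. Pf4 too rested on 1 row, the other having no ratio on any array, and it moved to 1.10 with exact 0 kept (limma adjusted p = 0.0459).

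Markers of platelets and megakaryocytes were read beside Pf4. Of 10 listed genes on the array, 2 had a ratio on all arrays and neither passed. The integrin subunit Itga2b read -0.230, -0.205 and -0.147 in mice 1 to 3 (limma adjusted p = 0.052), and Clec1b, a platelet receptor, read 0.332, 1.10 and 0.0379 (0.0687). Clec1b passed without mouse 1 (0.568, limma adjusted p = 0.0339) and without mouse 3 (0.715, 0.0101), and Itga2b passed, lower, with weighted arrays (-0.163, 0.0194) and on the row farthest from 0 (-0.289, 0.0136). Treml1, Selp and Nfe2 had no ratio on any array. The platelet chemokine Ppbp, which lies beside Pf4, had no row with 3 ratios: 1 row read -1.07 in mouse 1 and -0.883 in mouse 3, and the other 0.407 in mouse 2. Of the other platelet genes measured in part, Gp1bb read 0.796 in mouse 1, Gp9 0.0120 and 0.356 in mouse 1 and 0.0682 in mouse 3, Itgb3 0.149 and 0.358 in mouse 3 and Gp5 -0.298 in mouse 3, so the partly measured genes lay on both sides of 0. Macrophage markers were higher in 15 of 15 tested genes, with list means between 0.994 and 1.18 in the 3 mice, among them the lysozyme Lyz2 at 1.69 and the mannose receptor Mrc1 at 1.51, while the coreceptor Cd14 had no ratio. The part of these cells in the Pf4 ratio was not tested.

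**Figure D2:**
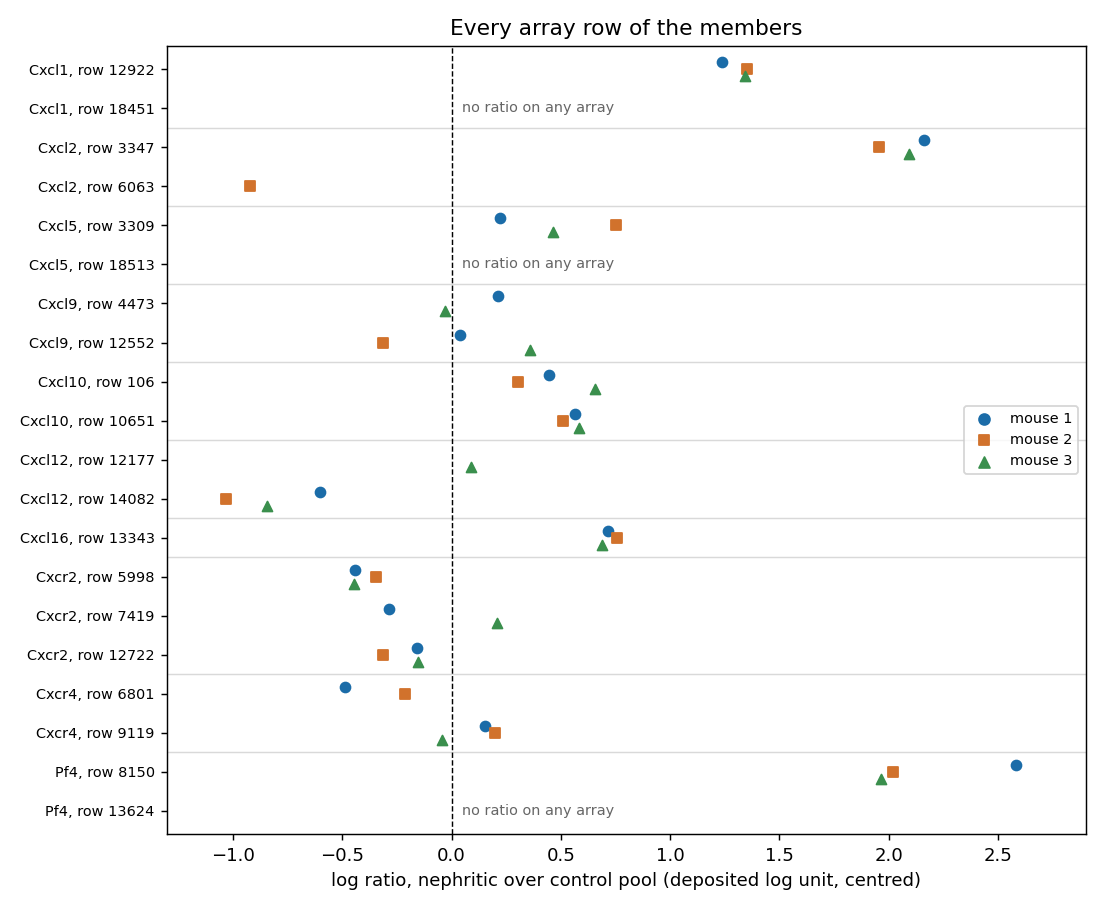
Log ratio (horizontal axis, deposited log unit, centred) of every array row of the 10 members in each mouse; a missing point is an exact 0 in the deposited table. The 2 rows of Cxcl10 lie together above 0. Partly measured rows of Cxcl2, Cxcl9, Cxcl12, Cxcr2 and Cxcr4 carry points on the other side of 0 from a complete row in the same mouse.

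Cxcl10 and Cxcl9 differed in outcome although they share a receptor. Cxcl10 was measured in full by 2 rows, and both passed: row 106 read 0.444, 0.303 and 0.657 in mice 1 to 3, and row 10651 read 0.564, 0.508 and 0.582. Their average was 0.510 ± 0.107 (interval 0.336 to 0.683; limma adjusted p = 0.00185). The 2 rows thus agreed in sign in all 3 mice, and the call was lost with exact 0 kept although the mean was then 0.526 (limma adjusted p = 0.0592).

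Cxcl9 read 0.0367 in mouse 1, -0.312 in mouse 2 and 0.361 in mouse 3. Its mean was 0.0283 ± 0.337 (interval -0.265 to 0.322; limma adjusted p = 0.869), so the mice spread to both sides of 0. A second row gave 0.214 in mouse 1 and -0.0286 in mouse 3 and had no ratio in mouse 2. Without mouse 3 the mean was -0.138 (limma adjusted p = 0.477). The interval leaves room for a change in either direction up to those limits, and the difference between Cxcl9 and Cxcl10 was not tested.

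Cxcl16 had the second narrowest spread of the set. It read 0.715, 0.755 and 0.688 in mice 1 to 3, a mean of 0.719 ± 0.0336 (interval 0.563 to 0.876; limma adjusted p = 0.000299), on the single row of the gene. All of its values lay above those of Cxcl10 and below those of Cxcl1. Its receptor Cxcr6, found on T and natural killer T cells, read -0.0151, -0.150 and -0.0980 and did not pass (limma adjusted p = 0.336). Of its sheddases, Adam10 rose by 0.300 (limma adjusted p = 0.0248) and Adam17 by 0.311 (0.0104). The call of Adam17 was lost without mouse 3 (0.283, 0.107), with exact 0 kept (0.327, 0.0558) and on the row nearest to 0 (0.0770, 0.423).

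Cxcl12 was, in the direction taken, the member with the lowest ratio, at percentile 2.68 of all tested features. It read -0.601 in mouse 1, -1.03 in mouse 2 and -0.844 in mouse 3. The mean was -0.825 ± 0.215 (interval -1.05 to -0.603; limma adjusted p = 0.000687), a 1.77-fold, 2.28-fold or 6.69-fold decrease depending on the base. The other row had a ratio in mouse 3 alone, 0.0879, against -0.844 for the first row there. With exact 0 kept the mean was -0.387 and the call was lost (limma adjusted p = 0.0816).

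Markers of stromal and endothelial cells, which make Cxcl12 in many healthy organs, were higher or did not pass. Of 15 tested markers of endothelium and stroma, 7 rose and 0 fell, with list means between 0.360 and 0.831 in the mice, the smooth muscle gene Tagln at 1.49 and the collagen genes Col3a1 at 2.43 and Col1a2 at 1.16; these 3 lost their calls with exact 0 kept. Split after the values were seen, 6 of 9 stromal genes rose, while of 6 endothelial genes only Eng rose (0.434, limma adjusted p = 0.0173) and 5 did not pass, among them Pecam1 at 0.131 and the VEGF receptor Kdr at -0.105; the difference between the parts was not tested. The endothelial cadherin Cdh5 had no row with 3 ratios. Of 10 tested kidney markers 7 fell, among them the podocyte gene Nphs1 (-0.416, limma adjusted p = 0.0183), 1 rose and 2 did not pass. Whether any of these cells bear on the Cxcl12 ratio was not tested.

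Cxcr2, the neutrophil receptor for Cxcl1, Cxcl2 and Cxcl5, was slightly lower while its ligands were higher. Row 5998 read -0.440, -0.346 and -0.447 in mice 1 to 3 and row 12722 read -0.157, -0.312 and -0.153, so both rows were below 0 in every mouse. The average was -0.309 ± 0.0172 (interval -0.464 to -0.154; limma adjusted p = 0.00904), the narrowest spread of the set, although the rows that were averaged differed from each other by more than that. Taken singly, row 5998 passed (-0.411, limma adjusted p = 0.00309) and row 12722 did not (-0.207, 0.0584). A further row gave -0.288 in mouse 1 and 0.207 in mouse 3. The call was also lost without mouse 2 (-0.213, limma adjusted p = 0.144), where that further row entered the average, without mouse 3 (-0.314, 0.0753) and with exact 0 kept (-0.201, 0.128).

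Neutrophil markers lay on both sides of 0. Of 12 tested, 3 rose, 4 fell and 5 did not pass, with a median of -0.0283 and list means between 0.0641 and 0.137 in the mice. Both counts are near the shares over all tested features, 20.8% called higher and 22.3% called lower. The calcium-binding protein S100a9 read 1.62, 1.53 and 1.30 in mice 1 to 3 (mean 1.48, limma adjusted p = 5.91e-05), and the formyl peptide receptor Fpr2 stood at 0.818 (0.000287). Hdc, the histamine-forming enzyme, was at -0.920 (0.0012), a call lost with exact 0 kept. S100a8 also rose (0.550, 0.00166), and Ly6g (-0.513, 0.00424), Ltf (-0.233, 0.0426) and Ngp (-0.228, 0.0435) also fell. The part of neutrophil number in the Cxcr2 ratio was not tested.

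Cxcr4, the receptor of Cxcl12, did not pass. The complete row read 0.155 in mouse 1, 0.201 in mouse 2 and -0.0449 in mouse 3, a mean of 0.104 ± 0.131 (interval -0.0785 to 0.286; limma adjusted p = 0.312). Another row gave -0.489 in mouse 1 and -0.211 in mouse 2, on the other side of 0 in the same mice. The platform annotation gives both rows the same gene. The mean was -0.0724 with rows measured on 2 arrays included, and -0.0861 without mouse 3. In both settings that other row entered the average, so the change of sign is not an effect of mouse 3 on the complete row, where mouse 3 was the lowest.

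**Figure D3:**
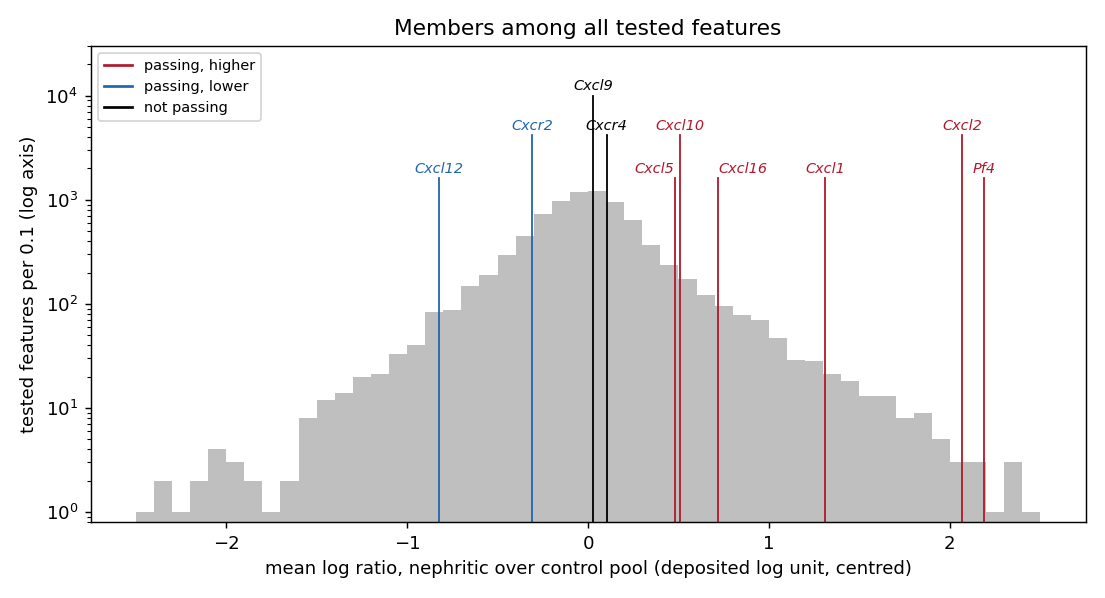
Number of tested features per 0.1 of mean log ratio (vertical axis, log scale; 8449 features) with each member's mean as a line coloured by its call. Pf4 and Cxcl2 stand in the upper tail, Cxcl12 in the lower, and Cxcl9 and Cxcr4 near the centre.

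In order of mean log ratio the members ran Pf4, Cxcl2, Cxcl1, Cxcl16, Cxcl10, Cxcl5, Cxcr4, Cxcl9, Cxcr2 and Cxcl12. These are differences from the control pool, not levels. The ranges over the 3 mice overlapped between the neighbours Pf4 and Cxcl2, Cxcl10 and Cxcl5, Cxcr4 and Cxcl9, and Cxcl9 and Cxcr2. They did not overlap between the other 5 neighbouring pairs. Along chromosome 5, Cxcl1 (1.31) and Cxcl2 (2.07) were both higher, while Cxcl15, the gene just before Cxcl1, read -0.0888, -0.347 and -0.131 and did not pass (limma adjusted p = 0.0922).

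Other chemokine genes and the atypical receptors, which bind ligands without signalling through G proteins, came from a list of 19, of which 15 were on the array and 10 tested. Of these 5 rose, 1 fell and 4 did not pass, with a median of 0.374. That median rested on few genes and depended on which were tested. It was 0.00852 when ratios on 2 arrays sufficed (14 genes), 0.0258 with exact 0 kept (15 genes) and 0.0236 without mouse 2 (14 genes). In those settings more genes of the list entered. With 10 genes tested it was 0.310 without mouse 1 and 0.362 without mouse 3. Ackr1, the atypical receptor of erythrocytes and venules that binds Cxcl1 and Cxcl2, read 1.69, 1.83 and 1.56 in mice 1 to 3 (mean 1.69, limma adjusted p = 4.03e-05). Ackr3, which binds Cxcl12, was at 0.476 ± 0.0728 (0.00191), above 0 in every mouse where Cxcl12 was below.

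Cxcl11, the third ligand of Cxcr3, rose by 0.610 ± 0.155 (limma adjusted p = 0.00133) and Cxcl14 by 0.537 ± 0.208 (0.00383). The membrane-bound chemokine Cx3cl1 rose by 0.673 ± 0.0354 (0.000383), whereas its receptor Cx3cr1 stood at -0.0441 ± 0.190 (0.713) and turned to 0.0323 without mouse 1. Cxcl11, Cxcl14 and Cx3cl1 lost their calls with exact 0 kept. Ackr2, a scavenger of CC chemokines, was at -0.198 ± 0.0244 (0.0467), a call lost when any 1 mouse was left out (0.0597 to 0.281).

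Of 20 tested genes for the shedding, cleavage and binding of these ligands, 11 rose, 3 fell and 6 did not pass, with a median of 0.271; without mouse 3 the number that rose was 5. The proteoglycan serglycin, Srgn, which holds Pf4 in platelet granules, rose by 0.548 (limma adjusted p = 0.00132) and the glypican Gpc3 by 1.06 (8.24e-05). Cd74, a partner of Cxcr4 in binding the cytokine Mif, was at 0.818 (0.0015) and Mif itself at -0.346 (0.00652), a call lost without mouse 3 (-0.320, 0.0711) and on the row nearest to 0. Dpp4, a protease of the proximal tubule brush border that cuts Cxcl10 and Cxcl12, read -0.303, -1.21 and -0.490 (mean -0.668, 0.0161). Srgn, Cd74 and Dpp4 lost their calls with exact 0 kept. The syndecan Sdc3 at -2.40 also lost its call with exact 0 kept (-2.39, limma adjusted p = 0.0522). Its row lay in a run of low rows, where 9 of the 12 complete rows within 10 row numbers were at -1 or less, against 1.63% of all complete rows.

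Genes that carry the signal of chemokine receptors rose in 12 of 23, fell in 3 and did not pass in 8, with a median of 0.238; Cxcr2 and Cxcr4 are among the 23. The leukocyte integrin subunit Itgb2 stood at 0.924 (limma adjusted p = 0.000479), the actin regulator Was at 0.877 (0.000317), the GTPase Rac2 at 0.607 (0.00158), the kinase Fgr at 0.540 (0.00119) and Rgs16, which shortens G protein signals, at 0.742 (0.000789). Besides Cxcr2, those that fell were the receptor kinase Grk6 at -0.545 (0.00172), which on its row nearest to 0 was at -0.137 (0.199), and Rgs14 at -0.367 (0.00567). With exact 0 kept 2 genes of this list were higher and 0 lower.

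Among 26 tested genes of NF-kB and of the IL-1, TNF and IL-17 pathways, which induce Cxcl1, Cxcl2 and Cxcl5 in many cells, 11 rose, 4 fell and 11 did not pass. The median was 0.111. Il1b rose by 1.09 (limma adjusted p = 1e-04), Il6 by 1.87 (3e-05), the NF-kB subunit Relb by 1.03 (0.000155) and Nfkbiz, a coactivator of a subset of NF-kB targets, by 1.85 (6.49e-05), the last losing its call with exact 0 kept. Il17a read -0.782, -0.863 and -0.923 in mice 1 to 3 (mean -0.856, 0.000187). The inhibitors Nfkbie at -0.688 (0.000552) and Nfkbib at -1.92 (5.04e-05) and the kinase subunit Ikbkg at -0.303 (0.0111) were the other genes that fell. Another inhibitor, Nfkbia, rose by 0.514 (0.00236), and Tnf did not pass (0.111, 0.265). Nfkbib lay in the same run of low rows, with 6 of 11 complete neighbours at -1 or less, and Ikbkg lost its call without mouse 2 (0.0575), without mouse 3 (0.096) and with exact 0 kept.

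Of 28 tested genes of interferon gamma signalling and response, 19 rose, 1 fell and 8 did not pass, with a median of 0.455. The receptor chain Ifngr1 rose by 0.863 (limma adjusted p = 0.00016), the immunoproteasome subunits Psmb8 and Psmb10 by 1.02 (0.000242) and 0.752 (0.000273), Irf7 by 0.843 (0.000683), Oas1a by 1.09 (0.000258) and Gbp2 by 0.722 (0.000601). The 8 that did not pass were Igtp at 0.235, Iigp1 at 0.195, Gbp3 at 0.147, Jak1 at 0.104, Ciita at -0.0731, Jak2 at -0.118, Socs1 at -0.163 and Gbp4 at -0.176. The gene that fell was Ifng itself, the inducer of Cxcl9, at -1.27, -0.841 and -0.668 in mice 1 to 3 (mean -0.928, 0.00107). Keeping exact 0 ended the calls of Gbp2, Ifng, Irf7, Oas1a and Psmb8, and then 4 genes of the list were higher and 0 lower.

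Markers of T and natural killer cells, the cells drawn by Cxcl9 and Cxcl10, rose in 3 of 11 tested genes and fell in 0. Over all tested features 20.8% were called higher and 22.3% lower, so the count that rose is near the background. The list means lay between 0.194 and 0.296 in the mice. Cd8a was at 0.991 (limma adjusted p = 0.000205), Cd4 at 0.235 (0.0254) and Cd5 at 0.264 (0.0376); Cd4 lost its call without mouse 2 and without mouse 3, Cd5 lost its call without mouse 3 (0.186, 0.295), and Cd5 turned to -0.0364 with exact 0 kept. Cd8b1, the partner chain of Cd8a, read -0.0772, 0.0851 and -0.170 in mice 1 to 3 and did not pass (limma adjusted p = 0.597). Cd3e, Gzmb and Nkg7 had no ratio on any array, and Cxcr3 had a ratio on 2. The part of these cells in the Cxcl10 ratio was not tested.

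**Figure D4:**
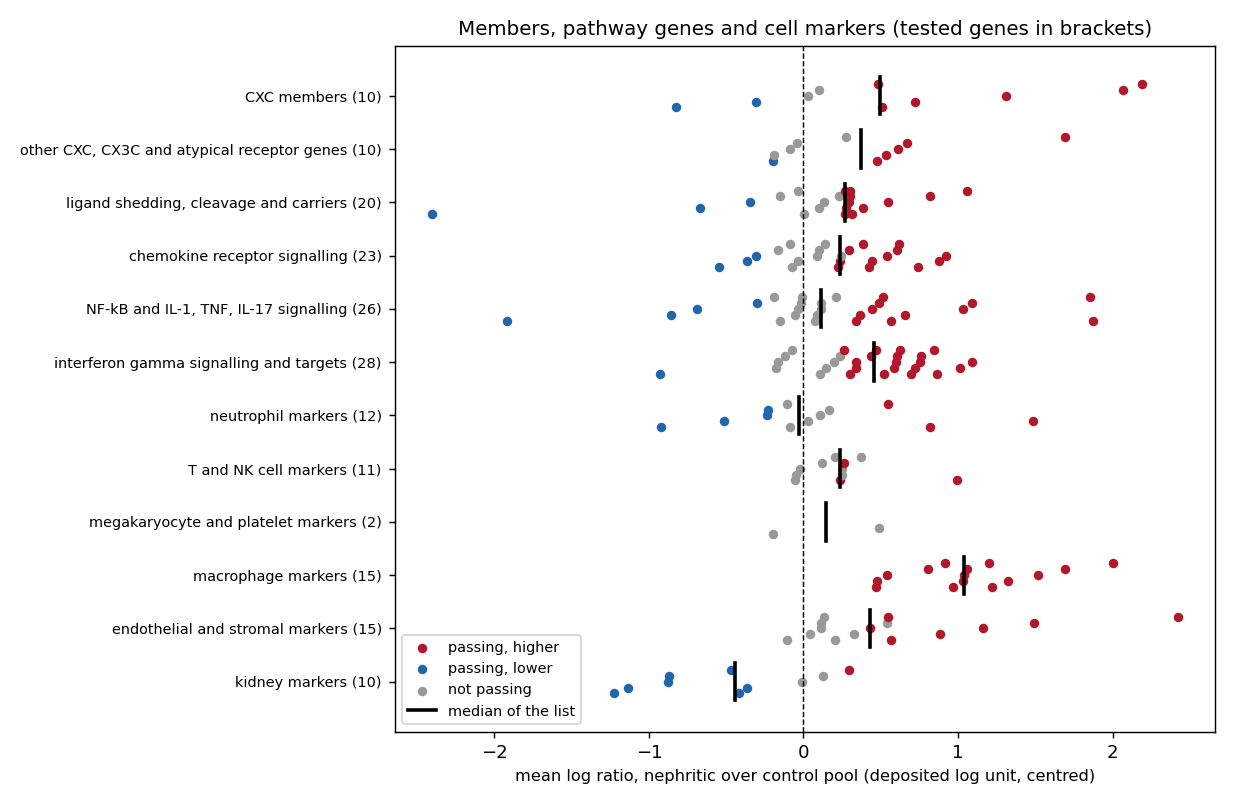
Mean log ratio (horizontal axis, deposited log unit, centred) of each tested gene in the members, the pathway lists and the cell marker lists, coloured by call, with each list's median as a black bar. Macrophage markers all lie above 0, neutrophil markers lie on both sides, and 7 of 10 kidney markers are called lower.

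On the series as a whole, an array gave a ratio for 10998 to 11930 of 16281 rows, and Pearson's r between arrays was 0.802 to 0.906 over the 9693 complete rows, as a description, since the pool is shared. Exact 0 filled 26.7 to 32.4% of cells and was treated as missing. For the labelled tissue, 12 of 15 listed kidney genes on the array gave a ratio on at least 1 array, and Umod, Kap and Podxl gave none; 7 of 10 tested fell, among them Slc34a1 (-1.22) and Egf (-1.14), and 1 rose. Ratios carry no level, so they do not show how strongly a gene was expressed. The number of arrays limits the precision.

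The members had 20 rows in all. Of these, 12 had a ratio on all arrays, 3 on 2 arrays, 2 on 1 array and 3 on none. Over the array, 201 genes had a complete row at 1 or more and 89 of them had over 1 row; another row was complete in 54, partly measured in 24 and without any ratio in 11, so the position of Cxcl1 and Pf4, with a second row that gave nothing, was the least frequent of the 3.

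**Figure D5:**
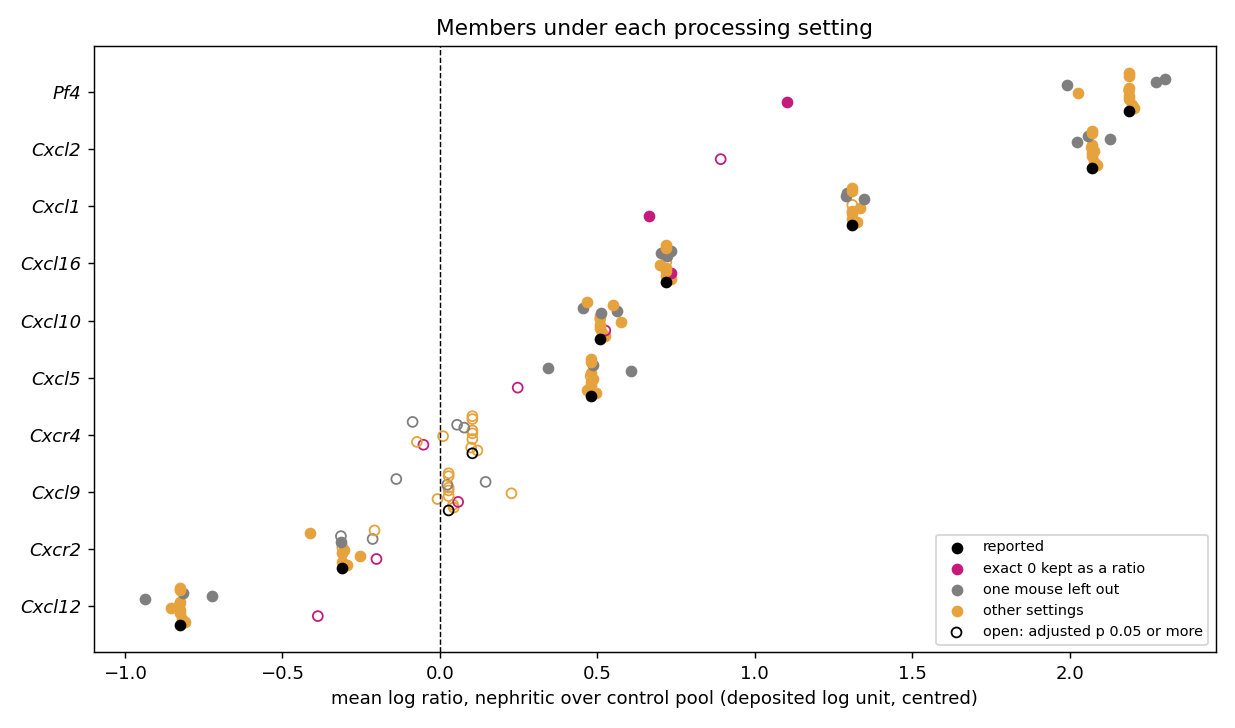
Mean log ratio of each member (horizontal axis, deposited log unit) as reported and under each alternative setting; open circles have an adjusted p of 0.05 or more. Keeping exact 0 as a ratio moves Pf4, Cxcl2, Cxcl1, Cxcl5 and Cxcl12 toward 0, while Cxcl16 and Cxcl10 stay close to their reported values.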

How the data were processed

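RNA of 3 nephritic mice (Cy5) and of the pool of 5 normal mice (Cy3) was hybridised to 3 2-colour arrays without dye swap, per the labels. The deposited values were log ratios, 1 column per array; scanner, normalization, log base and direction: not given in the sources used here. The median over all cells was 0 on each array. With exact 0 in 26.7 to 32.4% of cells, it cannot show whether the arrays were centred. Rows were named by the platform annotation, with symbols updated through RefSeq (GRCm38.p6): 13738 rows had 1 symbol, 52 several and 2491 none.

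Exact 0 was set to missing, arrays were centred on the median of their other cells (0.0151 to 0.0171), rows of a gene with 3 ratios were averaged, and features with 3 ratios were tested two-sided with limma 3.58.1 in R 4.3.3 (an intercept model in lmFit, then eBayes; 2 residual and 4.85 prior degrees of freedom, prior SD 0.134), with Benjamini-Hochberg adjustment over all 8449 features at 0.05. The fit was tested on simulated data for this comparison with 8449 features, 200 of them changed: it recovered 71% of changes of 0.5 and 99% of changes of 1, and 6.59% of its calls were false. The simulated noise was independent between arrays, with no error of the shared pool and no dye bias. That share of false calls is therefore not the share among the reported calls. Promoters and gene order came from RefSeq tables, and motifs were searched on both strands.

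All members are named; of each pathway list up to 6 genes with the smallest p, those passing against the direction of most and the receptors; of each marker list up to 3. Members and lists were chosen with earlier results of these data known. A few untested genes, and some tested list genes outside this rule, were named after their values were seen. The alternatives tried are given in the closing section. Protein sequences were not used here.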

Additional observations from a re-analysis of the deposited data

How the results depend on the processing

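Besides the reported setting, 13 others were run: no centring, scaled arrays, exact 0 kept, ratios on 2 arrays, array weights, a robust prior, a test without moderation, dropping the lowest 20% of features by SD, leaving out each mouse, and rows taken singly (farthest from and nearest to 0). Cxcl1, Cxcl16 and Pf4 kept direction and call in every setting that included them except the unmoderated test, where 0 features passed (limma had 4361 at an unadjusted p under 0.05 and this test 3060) and the smallest adjusted p over all features was 0.0541. There the means were unchanged by construction, and with 2 residual degrees of freedom the adjusted p was 0.0571 for Cxcl1 (1.31), Cxcl2 (2.07) and Cxcl16 (0.719), 0.0744 for Pf4 (2.19), 0.0871 for Cxcl10 (0.510), 0.188 for Cxcl5 (0.479), 0.0992 for Cxcl12 (-0.825) and 0.0576 for Cxcr2 (-0.309), so 0 members passed in either direction.

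With exact 0 kept, 549 features were higher and 437 lower of 13241, and 3 members were higher and 0 lower; the calls lost were Cxcl2 (0.892), Cxcl5 (0.248), Cxcl10 (0.526), Cxcl12 (-0.387) and Cxcr2 (-0.201). A second row of 0 brings the average of Cxcl5 near 0.5 times its value by construction; Cxcl10 kept its value and lost its call. Cxcr4 turned to -0.0517 there and to -0.0724 with ratios on 2 arrays, and Cxcl9 to -0.00698 with ratios on 2 arrays. Cxcr2 did not pass on its row nearest to 0 (-0.207), where 1 member was lower. Dropping features of low SD also left 1 member lower, since Cxcl1, Cxcl16 and Cxcr2 were then not among the features tested. The adjusted p-values of that setting reach 3.67e-103 and are not read.

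With 1 mouse left out, features called higher ranged from 1102 (without mouse 3) to 2090 (without mouse 1) and lower from 1121 (without mouse 3) to 2202 (without mouse 1). The members called lower ranged from 1 (without mouse 2 or mouse 3) to 2, Cxcr2 from -0.314 to -0.213, Cxcl9 from -0.138 (without mouse 3) to 0.146 and Cxcr4 from -0.0861 (without mouse 3) to 0.078. These ranges are not of mice alone, since rows with a ratio on both remaining arrays entered the averages. A further row entered for Cxcr2 and Cxcl9 without mouse 2, and for Cxcr4 without mouse 3. With exact 0 kept, the genes called higher and lower were 2 and 0 in the list of other chemokines, 3 and 1 in that of shedding and binding, and 5 and 3 in that of NF-kB. Of 50 passing list genes named by the stated rule besides the members, 28 lost their call with exact 0 kept and 6 without 1 or more mice. List genes named outside that rule were not counted there. No paired analysis was possible because the arrays form 1 group. The mean over 3 arrays, with no signal over background in the table, limits the precision.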

Other observations

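Some receptors and ligands of the family had too few ratios for a test. Cxcr3, the receptor of Cxcl9, Cxcl10 and Cxcl11 on activated T cells, read 0.0928 in mouse 1 and 0.0294 in mouse 3, and Cxcr5, the B cell receptor of Cxcl13, read 0.215 in mouse 1 and -0.0481 in mouse 3. Cxcl13 itself read 0.569, 0.0132 and 0.238 in mice 1 to 3 and did not pass (limma adjusted p = 0.0829). The lymphocyte chemokine Xcl1 had a ratio in mouse 3 alone on both of its rows, 0.488 and 0.189, and 1 row of its receptor Xcr1, found on a class of dendritic cells, read -0.276 in mouse 1 and -0.443 in mouse 3.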
